A study of Caenorhabditis elegans with 32 samples.

Results

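The data described here compare RNA bound to muscle ribosomes with total RNA of the whole worm in Caenorhabditis elegans on dimt-1 RNAi. A gene was included when it had 10 or more counts in each of 8 libraries, 4 of ribosome-bound RNA (TRAP, translating ribosome affinity purification) and 4 of total RNA, which held for 9657 of the 46748 genes in the count table. All worms were of the strain WBM1339, which carries FLAG-tagged ribosomal subunits in muscle. They were placed as synchronized L1 larvae on bacteria that deliver dimt-1 RNAi and were collected as young adults, so both fractions carry the label dimt-1 RNAi. The TRAP fraction was pulled down with an anti-FLAG antibody, and each replicate number joins a TRAP library with the total RNA library of the same number, called a lysate below. A further 8 libraries of the same strain and design on control RNAi serve only for the comparison at the end. The promoter that drives the tag, and which subunit carries it, are not given in the sources used here.

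In TRAP, ribosomes carrying an epitope tag are made in 1 tissue only, and the transcripts attached to them are recovered with an antibody from a lysate of the whole animal. Set against total RNA of the same lysate, transcripts of the tagged tissue stand out. In adult C. elegans most striated muscle is body wall muscle, whose sarcomeres are anchored through integrin attachments to a basement membrane and, through it, to the cuticle. The pharynx has muscle of its own, with separate genes for several contractile proteins. DIMT-1 is a methyltransferase that modifies adenosines of the small-subunit ribosomal RNA, and its RNAi is the condition that all libraries of this contrast share.

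Total counts were 34794250 to 45119309 in the TRAP libraries and 39760840 to 47075077 in total RNA. The fractions differed in composition. Genes of the thick and thin filaments made up 16.13 to 20.54% of the counts in TRAP and 1.45 to 1.80% in total RNA, and the 10 genes with most counts took 23.2 to 25.1% and 5.31 to 7.03%. Levels are given as CPM, counts per 1000000 relative to a library size scaled by the trimmed mean of M-values (TMM), with TMM factors of 0.575 to 0.671 in TRAP and 1.57 to 1.69 in total RNA. The filter removed genes mainly through TRAP. Of 13619 genes with 10 or more counts in all 4 total RNA libraries, 3962 were below 10 in at least 1 TRAP library, 1924 of these in the TRAP library of lysate 3 alone, whereas 141 genes passed in TRAP and not in total RNA. That TRAP library had 36218 genes at 0, against 30820 to 31518 in the others, and 204 genes with 1 to 20 counts, against 3248 to 3674.

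The gene targeted by the RNAi, dimt-1, is listed as E02H1.1 (WBGene00008455). Its level was 20.3, 21.3, 16.9 and 35.4 CPM in the TRAP libraries of lysates 1 to 4, and 17.8, 20.3, 24.3 and 16 CPM in total RNA. The fractions overlapped, and TRAP over total RNA was not called (log2 fold change 0.22, SE 0.25, adjusted p = 0.483). Without lysate 3 the gene passed the threshold at a log2 fold change of 0.48 (adjusted p = 0.0411), and on library size alone it was lower in TRAP. On a scale set over all 16 libraries, total RNA held 17.6, 19.7, 23.7 and 15.8 CPM of E02H1.1 on dimt-1 RNAi and 22.4 to 25.3 CPM on control RNAi. The total RNA library labelled dimt-1 RNAi lysate 3 was the only 1 of the 4 inside the control range. In TRAP the same scale gave 19.7, 20.5, 16.8 and 34.2 CPM on dimt-1 RNAi and 24.2, 11.5, 14.1 and 16.491 CPM on control RNAi. The TRAP libraries of the 2 treatments overlapped, and those labelled dimt-1 RNAi were not the lower ones, so a lower level of the targeted transcript was seen in total RNA of lysates 1, 2 and 4 only. Reads of double-stranded RNA from the food were not separated from those of the gene.

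In the rest of the transcriptome the total RNA library of lysate 3 was also closer to control than to its label, and the TRAP library was about equally far from both. Each library was placed on the line from the mean of the other dimt-1 RNAi libraries of its fraction, set to 0, to the mean of the other control libraries, set to 1, over 8324 genes. Total RNA of lysates 1, 2 and 4 lay at -0.54, 0.23 and -0.22, and that of lysate 3 at 0.98, beside 0.81 to 0.89 for the control libraries. In TRAP the values were 0.02, 0.39 and 0.15 in lysates 1, 2 and 4 and 0.59 in lysate 3, within the control range of 0.49 to 0.61. The median absolute log2 difference of the total RNA library of lysate 3 was 0.10 from the control mean and 0.18 from the mean of the other dimt-1 RNAi libraries, and that of its TRAP library was 0.38 and 0.39. In the ratio of TRAP to total RNA lysate 3 was the farthest of the 4 from the control mean, with a median absolute difference of 0.39 against 0.25 to 0.31 in the others. The main counts, and several lists and genes, are therefore given with and without this lysate.

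**Figure D1:**
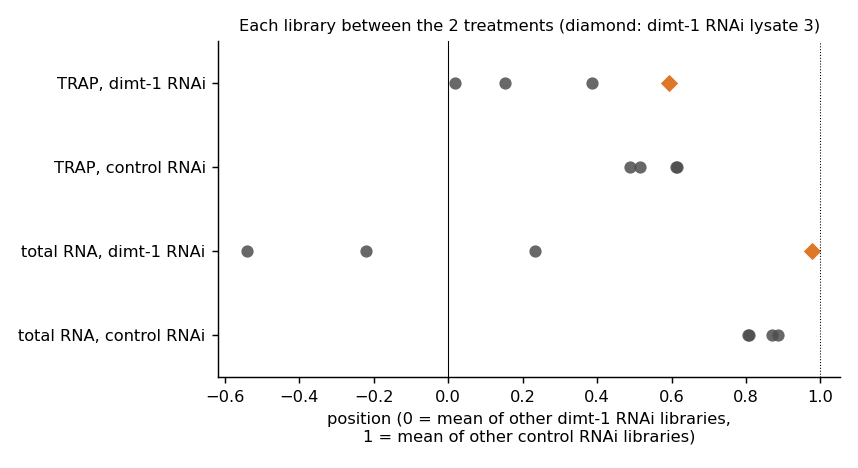
Position of each of the 16 libraries between the mean of the other dimt-1 RNAi libraries (0) and the mean of the other control RNAi libraries (1) of the same fraction, over 8324 genes, with no unit. Each point is 1 library, and the diamonds, dimt-1 RNAi lysate 3, lie at 0.59 in TRAP and 0.98 in total RNA, among or beyond the control libraries.

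TRAP and total RNA differed for much of the transcriptome. With the lysate as a block, 2682 genes were higher in TRAP, 27.8% of those tested, and 2273 were lower, 23.5% (edgeR quasi-likelihood test, adjusted p under 0.05). At least 2-fold differences were found for 1917 higher genes (19.9%) and 391 lower genes (4.05%). The rises were larger than the falls. Among called genes 1173 rose at least 4-fold, 387 at least 16-fold and 76 at least 64-fold, whereas 22 fell at least 4-fold, and the log2 fold changes ran from -2.79 to 7.61 with a median of -0.06. The first quartile was -0.45 and the upper quartile 0.71. The split of the calls depends on the scaling. On library size alone, without TMM, every log2 fold change is lower by a median of 1.43, and 1190 genes were higher and 7373 lower, so changes below are read against the median gene. Leaving out lysate 4 left 1387 lower calls, and leaving out lysate 2 left 1506. Without lysate 3, 11760 genes passed the filter, of which 3063 were higher and 2762 lower.

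**Figure D2:**
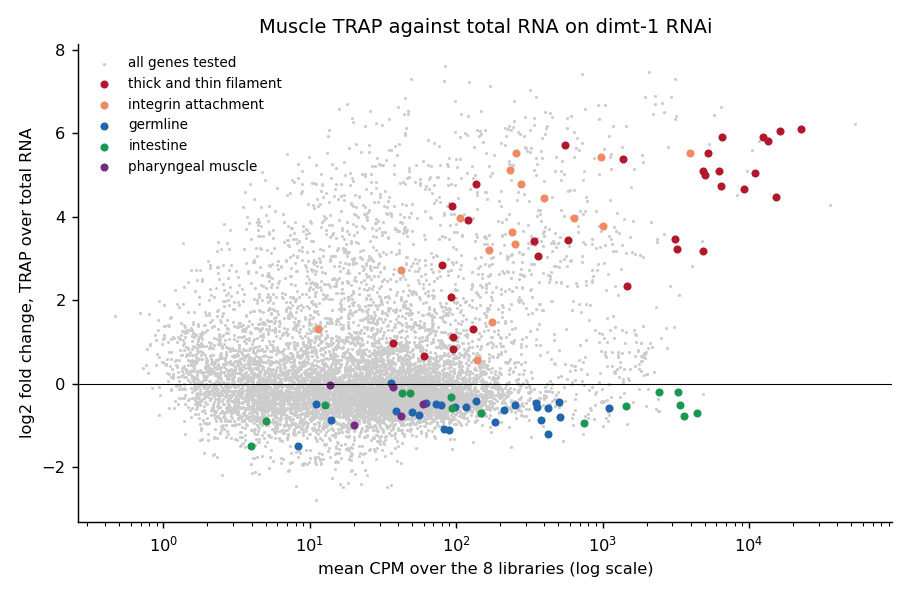
Log2 fold change of TRAP over total RNA (edgeR, vertical axis) against the mean CPM over the 8 libraries (log scale), 1 point per gene, for the 9657 genes tested on dimt-1 RNAi. Thick and thin filament genes lie between 0.68 and 6.1, and germline, intestine and pharyngeal muscle genes between -1.49 and 0.03. On library size alone, genes between 0 and 1.43 fall below 0.

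The 12 largest rises were taken among genes with a gene-class symbol and 50 CPM or more in the higher fraction. The largest was oig-2, which encodes a protein with a single immunoglobulin domain, at 1050, 1538, 1574 and 1598 CPM in TRAP and 5.70, 6.86, 11.1 and 11.3 CPM in total RNA (log2 fold change 7.4, SE 0.17, adjusted p = 5.3e-11). The chondroitin proteoglycan gene cpg-9 had 4962, 5804, 6975 and 7257 CPM in TRAP and 38.4, 29.9, 39.3 and 51.9 CPM in total RNA (7.30, SE 0.18). In both genes every TRAP library was far above every total RNA library. The small heat shock protein gene hsp-12.1 stood at 74.9 to 125 CPM in TRAP and at 0.345 to 0.952 CPM in total RNA (7.29, SE 0.19). The insulin-like peptide gene ins-27 was at 180, 198, 237 and 353 CPM in TRAP and at 0.767 to 2.57 CPM in total RNA (7.24, SE 0.18).

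The other 8 of the 12 largest rises were txt-14, ttr-6, ttr-24, heh-1, ttr-5, exc-13, dlc-3 and ttr-17, with log2 fold changes of 7.04 down to 6.67. The ttr genes encode transthyretin-related secreted proteins and dlc-3 a dynein light chain. The level of ttr-6 was 2938, 3590, 5795 and 5748 CPM in TRAP against 35.5, 22.1, 41.4 and 54.5 CPM in total RNA, and that of ttr-24 was 2021 to 5648 CPM against 20.9 to 45 CPM. In both, lysates 3 and 4 were the higher of the TRAP libraries. The ttr family as a whole did not move together. Of its 36 genes tested 16 were higher and 4 lower, counted after the 4 ttr genes above were seen, beside 27.8% and 23.5% of all genes. Of the 50 largest rises at this level 22 had a gene-class symbol, against 42 of the 50 largest falls.

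The gene with most TRAP counts was far-2, which encodes a fatty acid and retinol binding protein and was noted after its values were seen. It stood at 80298, 102122, 118996 and 120402 CPM in TRAP and at 1164, 1120, 1706 and 1707 CPM in total RNA (log2 fold change 6.22, SE 0.19). The ratio was highest in lysate 2.

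HLH-1, the MyoD homologue of C. elegans, binds E-boxes, and the letters CAGCTG are such an E-box. They were searched for in the 250 bases before the annotated start of each coding gene. The motif is its own reverse complement, so a match holds for both strands. It was present in 361 of 9373 windows (3.85%), in 35 of the 376 windows of genes at least 16-fold higher in TRAP (9.31%), in 4.49% of genes higher by 2-fold to under 16-fold, in 3.49% of genes not called and in 3.31% of lower genes. A match is a description and not a binding site. Of the 60 windows of the 12 largest rises and of the filament and attachment genes 3 held it. All 3 belong to the 12 largest rises, so no listed filament or attachment gene held the motif in its window. The 3 are shown from the WBcel235 genome, 5′ to 3′ on the strand of the gene, with the motif in capitals. They are cpg-9 (minus strand, chrIV:3070376-3070460), ttr-6 (minus strand, chrX:6597282-6597367) and heh-1 (minus strand, chrIII:3199654-3199739).
cpg-9: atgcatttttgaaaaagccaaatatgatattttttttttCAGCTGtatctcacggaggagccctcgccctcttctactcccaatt
ttr-6: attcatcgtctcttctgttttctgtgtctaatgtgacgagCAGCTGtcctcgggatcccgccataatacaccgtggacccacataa
heh-1: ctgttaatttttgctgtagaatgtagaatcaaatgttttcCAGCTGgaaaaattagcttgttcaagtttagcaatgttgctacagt
The motif begins 211 bases before the start of cpg-9, 206 before that of ttr-6 and 183 before that of heh-1. The gene heh-1, named for a human epididymal homologue, was at 4311, 5439, 6712 and 6810 CPM in TRAP and at 44.7, 36.2, 53.1 and 69.3 CPM in total RNA (log2 fold change 6.86, SE 0.18).

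Genes with the largest rises were short. Among 9384 coding genes tested the median summed exon length was 662 bases for the 76 genes with a log2 fold change of 6 or more, 1148.5 bases for those from 4 to under 6, 1221.5 bases for those from 0 to under 1 and 2161 bases for the 395 genes under -1. Across genes, which are not independent replicates, Spearman's rho of exon length and log2 fold change was -0.27. The part of length in the fold changes was not tested.

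Genes of the sarcomere were higher in TRAP throughout. All 13 genes of the thick filament and of myosin assembly were called higher, against 27.8% of all genes, with a median log2 fold change of 3.41, and all 19 genes of the thin filament, with a median of 4.73. The regulatory myosin light chain gene mlc-2 had the largest rise of the thick filament list, at 19559, 26116, 27189 and 25856 CPM in TRAP and 396, 341, 402 and 501 CPM in total RNA (5.91, SE 0.18). Its close relative mlc-1 was at 11035, 14215, 4797 and 7740 CPM in TRAP and 306, 254, 172 and 309 CPM in total RNA (5.10, SE 0.21), and how reads shared by mlc-1 and mlc-2 were counted is not given in the sources used here. The essential light chain gene mlc-3 rose by 5.10 (SE 0.18). The main myosin heavy chain of body wall muscle, unc-54, was at 8500, 10306, 8346 and 7708 CPM in TRAP and at 962, 806, 935 and 1171 CPM in total RNA (3.17, SE 0.17). The paramyosin gene unc-15 rose by 3.46 (SE 0.19). The smallest difference of the list was that of unc-22, which encodes the giant protein twitchin, at 75, 109, 67.3 and 50.9 CPM in TRAP and 50.2, 41.7, 41.6 and 49.5 CPM in total RNA (0.68, SE 0.18, adjusted p = 0.00832). Its TRAP and total RNA ranges came close in lysate 4, the call was lost without lysate 2 (0.44, adjusted p = 0.055), and on library size alone it was lower in TRAP.

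The thin filament list ran from 0.83 to 6.1 on the log2 scale. The troponin C gene pat-10 was at 44679, 57472, 33096 and 44005 CPM in TRAP and at 671, 595, 563 and 759 CPM in total RNA (log2 fold change 6.1, SE 0.20). The troponin I gene unc-27 was at 29329, 35323, 30560 and 34160 CPM in TRAP and at 479, 399, 504 and 594 CPM in total RNA (6.04, SE 0.18). No TRAP library of either gene came near a total RNA library. The calponin-like gene clik-1 rose by 5.82 (SE 0.18), and the actin genes act-3 and act-4, which share much of their sequence, by 5.05 (SE 0.17) and 4.48 (SE 0.17). The capping protein gene cap-2, whose product caps actin filaments in many cell types, had the smallest rise of the list at 0.83 (SE 0.14), and was lower in TRAP on library size alone.

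All 16 genes of the integrin attachments were called higher, against 27.8% of all genes, with a median log2 fold change of 3.88. The LIM domain gene unc-95 was at 355, 478, 637 and 528 CPM in TRAP and at 11.7, 7.5, 12.5 and 11.5 CPM in total RNA (5.53, SE 0.18). The immunoglobulin repeat gene dim-1 stood at 7218, 9389, 7024 and 7155 CPM in TRAP and 162, 141, 160 and 208 CPM in total RNA (5.52, SE 0.19). The groups were apart in every lysate for both genes. The LIM domain genes alp-1, zyx-1 and unc-97 rose by 5.42, 3.78 and 4.46, and the alpha-actinin gene atn-1 by 3.97. The perlecan gene unc-52, an extracellular anchor of the attachments, had the smallest rise at 0.56 (SE 0.11, adjusted p = 0.000926), and was lower in TRAP on library size alone.

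Genes of excitation and calcium handling followed, with 18 of 19 genes tested higher and 1 lower, beside 27.8% and 23.5% of all genes. Their median was 3.26. The calsequestrin gene csq-1 was at 4901, 6478, 5069 and 5618 CPM in TRAP and at 109, 96, 103 and 125 CPM in total RNA (5.67, SE 0.16). The potassium channel gene twk-18 rose by 4.6 (SE 0.18), the acetylcholine receptor clustering gene lev-10 by 3.51 (SE 0.13), the calcium pump gene sca-1 by 2.35 (SE 0.21) and the ryanodine receptor gene unc-68 by 1.75 (SE 0.14). The lower gene was itr-1, which encodes the IP3 receptor, at 28, 23.4, 13.1 and 23.2 CPM in TRAP and 37.7, 31.1, 25.9 and 29.4 CPM in total RNA (-0.54, SE 0.17, adjusted p = 0.02). Its call was lost without lysate 1, 2 or 4 (adjusted p = 0.0785, 0.0511 and 0.0638). The listed gene unc-63 did not pass the filter.

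The dystrophin complex links the muscle cytoskeleton to the membrane. Of its 11 genes 10 were higher and 1 lower (median 2.03), beside 27.8% and 23.5% of all genes. The sarcoglycan gene sgcb-1 was at 161, 190, 218 and 267 CPM in TRAP and at 2.43, 3.01, 4.18 and 4.52 CPM in total RNA (5.90, SE 0.13), and the syntrophin-like gene stn-2 rose by 4.67 (SE 0.27). The sarcoglycan genes sgn-1 and sgca-1 rose by 5.6 and 4.08. Dystrophin itself, dys-1, rose by 1.37 (SE 0.13), at 76.8 to 93.8 CPM in TRAP and 30.0 to 38.1 CPM in total RNA, a difference of -0.07 on library size alone. The lower gene, the acetylcholine transporter snf-6, had 0.823 to 5 CPM in TRAP and 2.52 to 5.21 CPM in total RNA (-1.34, SE 0.50, adjusted p = 0.0415), and its call was lost without lysate 1 (adjusted p = 0.0571), 2 (0.208) or 4 (0.176). Of the muscle transcription factors 4 of 5 were tested. The MyoD homologue hlh-1 was at 47.4, 63, 27.3 and 55.6 CPM in TRAP and at 2.1, 2.38, 4.73 and 1.95 CPM in total RNA (4.17, SE 0.37), with lysate 3 the lowest in TRAP and the highest in total RNA. The serum response factor gene unc-120 rose by 3.88 (SE 0.20). The early factors hnd-1 and ceh-51 were at 0.83 to 7.70 CPM in TRAP and were not called.

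Of the basement membrane genes 9 of 12 tested were higher and 1 lower, beside 27.8% and 23.5% of all genes, with a median of 2.80. The listed genes pxn-2 and gon-1 did not pass the filter. The SPARC homologue ost-1 was at 10414, 13416, 7222 and 9607 CPM in TRAP and at 246, 191, 187 and 254 CPM in total RNA (5.51, SE 0.19). The type IV collagen genes emb-9 and let-2 rose by 3.75 (SE 0.15) and 3.19 (SE 0.17), the papilin gene mig-6 by 3.00 (SE 0.16) and the laminin alpha gene epi-1 by 2.74 (SE 0.12). The other laminin alpha gene, lam-3, fell by 1.04 (SE 0.31, adjusted p = 0.0161), at 3.27 to 7.26 CPM in TRAP and 8.34 to 14.1 CPM in total RNA, and its call was lost without lysate 4 (adjusted p = 0.0668) and under both looser filters on low counts (adjusted p = 0.0754 and 0.077). Each of these lists, from the thick filament to the basement membrane, kept a median above that of all genes under every alternative tried.

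**Figure D3:**
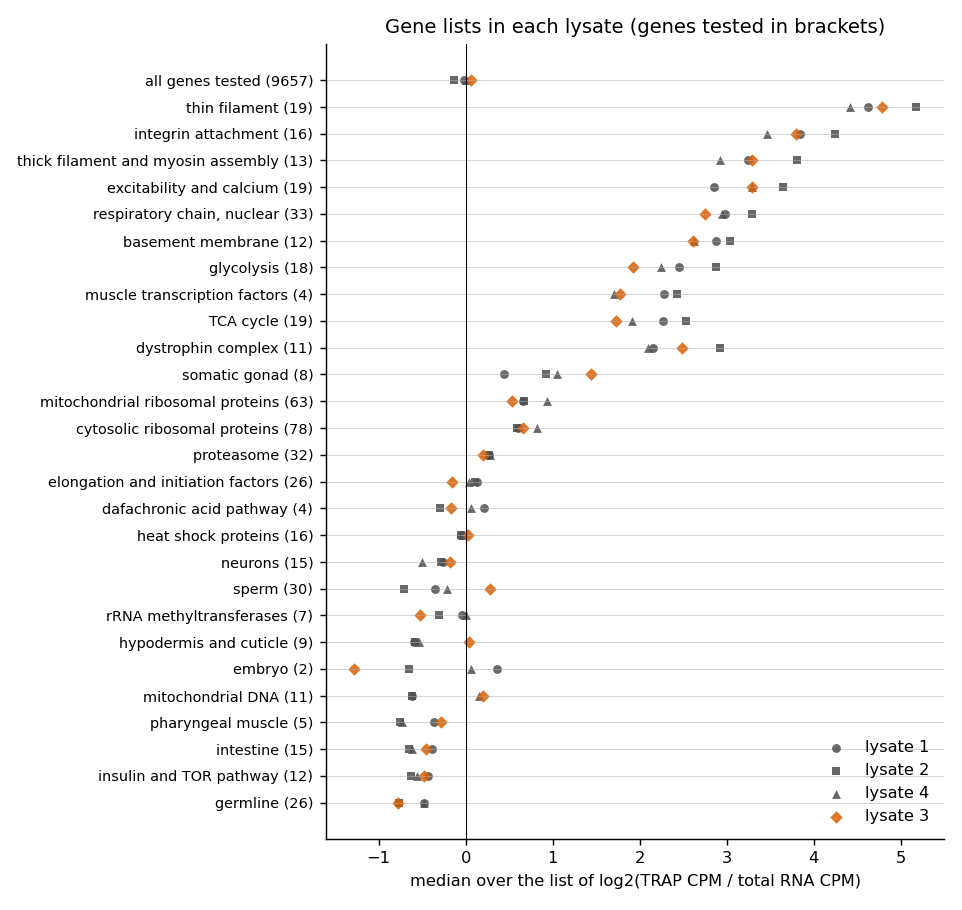
Median over each gene list of the log2 ratio of TRAP CPM to total RNA CPM, in each of the 4 lysates (1 marker per lysate, tested genes in brackets). The sarcomere, attachment, excitability, respiratory chain and basement membrane lists lie above 2.6 in every lysate and the germline list between -0.78 and -0.48, and lysate 3 lies apart at 0.04 for hypodermis and cuticle. On library size alone, lists with a median under 1.43 lie below 0.

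Genes of pharyngeal muscle did not share this pattern. Of 7 listed genes 5 were tested, 0 were higher and 3 were lower, beside 27.8% and 23.5% of all genes, with a median of -0.48. Without lysate 3, 6 were tested, 0 higher and 4 lower (median -0.64). The pharyngeal myosin gene myo-2 was at 36.3, 22.5, 30.0 and 35.2 CPM in TRAP and at 65.5, 53.3, 36.5 and 58.3 CPM in total RNA (-0.78, SE 0.16). By contrast the body wall myosin gene myo-3 was at 614, 703, 588 and 598 CPM in TRAP and 64.6, 50.2, 51.5 and 71.1 CPM in total RNA (3.41, SE 0.14). The pharyngeal myosin gene myo-1 fell by 0.48 (SE 0.14, adjusted p = 0.0127), a call lost without lysate 1 or 4 (adjusted p = 0.0553 and 0.0727), and the troponin T gene tnt-4 by 0.99 (SE 0.18). The troponin I genes of body wall muscle, tni-1 and tni-3, rose by 5.73 and 5.37, whereas the pharyngeal tni-4 was at 28.5, 36.8, 55.6 and 26.1 CPM in TRAP and 36.6, 34.9, 33.2 and 43.4 CPM in total RNA (-0.07, SE 0.21, not called). The gene myo-5 was at -0.02 (SE 0.31) and was not called.

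Related genes of energy metabolism also parted ways, and the pairs named here were chosen after their values were seen. Of the glycolysis genes 14 of 18 tested were higher and 2 lower, beside 27.8% and 23.5% of all genes, with a median of 2.47. The aldolase gene aldo-1 was at 2693, 3210, 5025 and 3692 CPM in TRAP and at 80.3, 61.6, 86.9 and 94.2 CPM in total RNA (5.48, SE 0.17). Its relative aldo-2 was at 313, 320, 429 and 356 CPM in TRAP and at 365, 415, 568 and 430 CPM in total RNA (-0.32, SE 0.10, adjusted p = 0.0217), a call lost whichever lysate was left out (adjusted p = 0.0558 to 0.101). Among the glyceraldehyde-3-phosphate dehydrogenase genes gpd-2 and gpd-3 rose by 3.66 and 3.46, whereas gpd-1 and gpd-4 were at 0.05 and -0.18 and were not called. These 4 genes form near-identical pairs, so counts could be shared within a pair. The enolase gene enol-1, with most TRAP counts of the list, rose by 3.46 (SE 0.14), and the hexokinase gene hxk-1 fell by 0.62 (SE 0.10), at 158.5 to 176 CPM in TRAP and 237 to 282 CPM in total RNA.

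Of the 19 TCA cycle genes 15 were higher and 2 lower, beside 27.8% and 23.5% of all genes, with a median of 2.08. The isocitrate dehydrogenase subunit gene idhg-2 was at 378, 483, 514 and 494 CPM in TRAP and at 11, 10.3, 13.4 and 14.8 CPM in total RNA (5.24, SE 0.14), whereas its relative idhg-1 fell by 0.78 (SE 0.16). The succinate dehydrogenase gene sdha-1 rose by 2.61 (SE 0.11), and sdha-2 was at -0.36 (SE 0.16, adjusted p = 0.0814), passing the threshold only without lysate 3 (-0.55, adjusted p = 0.00056) among the leave-outs. The malate dehydrogenase gene mdh-2 rose by 3.16 (SE 0.15), and ogdh-2, a 2-oxoglutarate dehydrogenase gene, fell by 0.78 (SE 0.13).

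Nuclear genes of the respiratory chain and ATP synthase rose nearly as a body, with 31 of 33 tested higher, 1 lower and a median of 3.03. The complex III gene ucr-11 was at 1008, 1241, 990 and 1232 CPM in TRAP and at 47.7, 42.6, 45.3 and 47.5 CPM in total RNA (4.6, SE 0.13), and the ATP synthase gene atp-2 rose by 2.12 (SE 0.15). The ATP synthase subunit genes asb-2 and asb-1 were at 3.65 (SE 0.15) and at -0.14 (SE 0.11, not called). Of the complex III core genes ucr-2.1 and ucr-2.2 rose by 2.86 and 3.09, and ucr-2.3 fell by 0.33 (SE 0.13, adjusted p = 0.0486), a call lost without lysate 1, 2 or 4 (adjusted p = 0.247, 0.125 and 0.137). The protein-coding genes of the mitochondrial genome, which are translated on mitochondrial ribosomes, did not share this rise. Of 11 tested 1 was higher and 5 lower, beside 27.8% and 23.5% of all genes, with a median of -0.41. DESeq2 and limma with quality weights each gave 3 higher and 6 lower, and leaving out lysate 2 gave 3 higher and 4 lower. Only 3 were lower without lysate 4 or with no replicate block. The per-lysate medians of these genes were -0.62, -0.62, 0.20 and 0.16 in lysates 1 to 4. They took 0.376 to 0.527% of the counts in TRAP and 0.839 to 1.62% in total RNA.

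**Figure D4:**
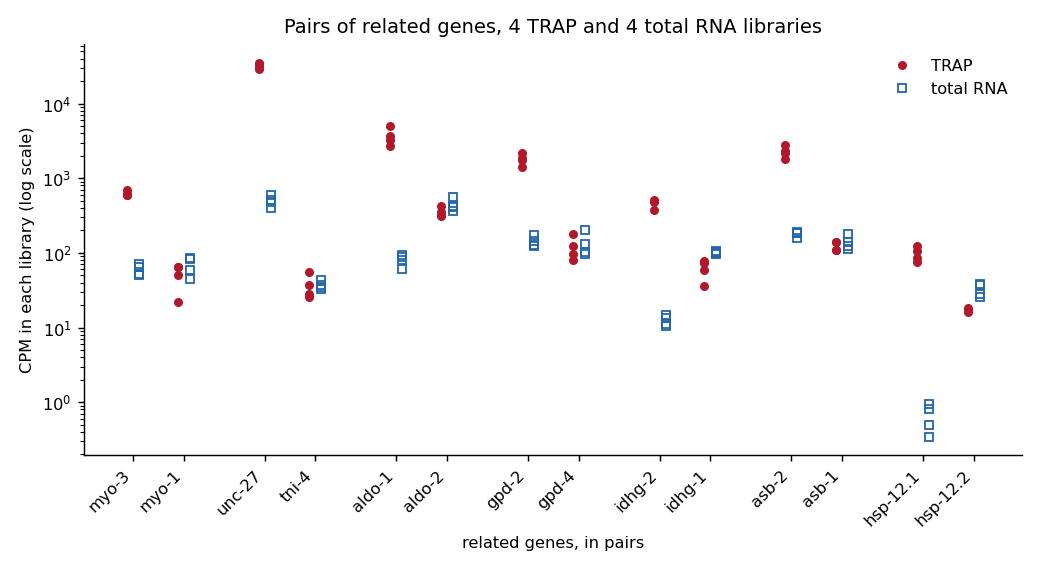
CPM in each of the 4 TRAP (filled circles) and 4 total RNA libraries (open squares), log scale, for 7 pairs of related genes. The first gene of each pair is higher in all 4 TRAP libraries than in any total RNA library, as aldo-1 is at 2693 to 5025 against 61.6 to 94.2 CPM, and the TRAP libraries of the other gene overlap its total RNA libraries or lie below them.

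Genes of the cytosolic ribosome stood a little above the median gene, with 62 of 78 tested higher, 0 lower and a median of 0.67. Of all genes 27.8% were higher and 23.5% lower. On library size alone the median of the list becomes -0.76, with 66 lower. At least 2-fold rises were found for 18 of the 78, beside 19.9% of all genes. The gene rpl-22 was at 7675, 9650, 8333 and 9613 CPM in TRAP and at 775, 751, 879 and 865 CPM in total RNA (3.43, SE 0.14), and rpl-41.1 was at 1868, 1979, 2019 and 3071 CPM in TRAP and at 61.5, 72.5, 59.4 and 55.8 CPM in total RNA (5.14, SE 0.19). The TRAP libraries on control RNAi held 7878 to 10719 CPM of rpl-22 on the scale of all 16 libraries, and those on dimt-1 RNAi 7452 to 9309 CPM. The lowest gene was rps-2 at -0.20 (SE 0.11, not called). Mitochondrial ribosomal protein genes were higher for 43 of 63 and lower for 1, with a median of 0.74 that is -0.70 on library size alone. The largest rise was that of mrpl-36 (1.84, SE 0.13), mrpl-44 was at 1.2 (SE 0.12) and changed sign on library size alone, and mrpl-46 was the lower gene (-0.83, SE 0.28), a call lost without lysate 1, 2 or 4 (adjusted p = 0.132, 0.126 and 0.0688).

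Translation factors and the proteasome moved less. Of 26 elongation and initiation factor genes 7 were higher and 4 lower, beside 27.8% and 23.5% of all genes, with a median of -0.02. Only 1 was lower without lysate 1 and 2 without lysate 4. The cap-binding protein gene ife-4 was at 16.22, 19.9, 12.61 and 26.3 CPM in TRAP and 2.60, 3.53, 3.90 and 4.11 CPM in total RNA (2.38, SE 0.26), and ife-3, a cap-binding protein with a role in the germline, fell by 0.98 (SE 0.10). The elongation factor gene eef-1A.1 was at -0.25 (SE 0.12, not called). Of 32 proteasome genes 16 were higher and 3 lower, beside 27.8% and 23.5% of all genes. They ran from -0.53 for rpn-2 to 1 for rpn-6.1 with a median of 0.26, and on library size alone all 32 were lower. The higher genes were 10 without lysate 1 and 8 without lysate 4. The alpha subunit gene pas-3, with most TRAP counts of the proteasome list, was at 0.55 (SE 0.13), a call lost without lysate 1 or 4 (adjusted p = 0.0597 and 0.066) and of the other sign on library size alone.

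Heat shock protein genes split by member. Of 16 tested 6 were higher and 5 lower, beside 27.8% and 23.5% of all genes, with a median of -0.13. Among small heat shock proteins hsp-12.1 is described above, hsp-25 was at 1346, 1944, 1368 and 1261 CPM in TRAP and 65.2, 58.4, 65.5 and 72.3 CPM in total RNA (4.48, SE 0.17), and hsp-12.3 was at 12.18, 31.1, 45.8 and 15.5 CPM in TRAP and 1.24 to 1.56 CPM in total RNA (4.03, SE 0.34). By contrast hsp-12.2 fell by 0.90 (SE 0.18), at 16.3 to 18.2 CPM in TRAP and 25.6 to 38 CPM in total RNA.

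Markers of other tissues were present in TRAP. In the main fit, apart from the somatic gonad, each such list with tested genes had a median below that of all genes. Under both looser filters on low counts the sperm median was 0.003 and 0.105 above that of all genes. The embryo median, of 2 genes, was 0.016 above it without lysate 3. The germline list had 0 genes higher and 24 of 26 lower, against 23.5% of all genes, with a median of -0.57. The eggshell gene cbd-1 was at 971, 836, 889 and 881 CPM in TRAP and at 1262, 1385, 1400 and 1258 CPM in total RNA (-0.57, SE 0.11). The synaptonemal complex gene syp-3 fell by 1.49 (SE 0.26), and syp-1 was at 0.03 and not called. Germline list genes took on average 0.269% of the counts in TRAP and 1.12% in total RNA. Each TRAP library is set against total RNA of the same number, so these shares do not measure the number of germ cells or the RNA in each. Why germline transcripts were present in TRAP was not tested.

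The intestine list had 0 higher and 8 of 15 lower genes (median -0.53), beside 27.8% and 23.5% of all genes. With no replicate block 5 were lower. The yolk protein gene vit-2 was at 3112, 2454, 5081 and 3075 CPM in TRAP and at 4599, 4759, 6947 and 5506 CPM in total RNA (-0.70, SE 0.13), and vit-4 was at -0.21 (SE 0.12, not called). The vit genes are closely related in sequence, and how shared reads were counted is not given in the sources used here. The esterase gene ges-1 fell by 1.49 (SE 0.46, adjusted p = 0.0179), at 0.770 to 3.5 CPM in TRAP, a call lost without lysate 2 (adjusted p = 0.0741).

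Of 27 neuronal genes 15 were tested, 2 higher and 5 lower (median -0.22), beside 27.8% and 23.5% of all genes, and the filter left out 12. Without lysate 2 the lower genes were 3 of 15, and without lysate 3 they were 7 of 23 (median -0.53). The higher genes were unc-13, which primes synaptic vesicles, at 21.5, 29.9, 28.1 and 30.7 CPM in TRAP and 9.82, 8.29, 8.34 and 10.6 CPM in total RNA (1.57, SE 0.20), and the neuropeptide processing gene sbt-1 (0.52, SE 0.15), which was lower on library size alone. The axon outgrowth gene unc-33 fell by 1.14 (SE 0.21).

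Of 17 hypodermis and cuticle genes 9 were tested, 0 higher and 4 lower (median -0.30), beside 27.8% and 23.5% of all genes. With no replicate block 2 were lower, and without lysate 3 the lower genes were 6 of 11 (median -0.48). The nuclear receptor gene nhr-23 fell by 1.31 (SE 0.18). The adult collagen gene col-19 was at 1230, 897, 1221 and 1342 CPM in TRAP and 1496, 1286, 1300 and 1679 CPM in total RNA (-0.30, SE 0.11, adjusted p = 0.0447), a call lost without lysate 1, 2 or 4 (adjusted p = 0.121 to 0.163). The collagen gene dpy-7 was at 0.822, 2.39, 17.5 and 3.04 CPM in TRAP, with lysate 3 the highest, and was not called.

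Sperm genes had 0 higher and 7 of 30 tested lower (median -0.27), near the 23.5% of all genes. The count rested on single lysates, with 16 of 36 lower without lysate 3, 2 of 30 without lysate 1, 2 or 4, and 0 with no replicate block. They differed between lysates in both fractions. The major sperm protein gene msp-59 was at 41.2, 16.46, 14.2 and 45.8 CPM in TRAP and 36.5, 23.5, 9.90 and 51.5 CPM in total RNA (0.00, SE 0.18, not called), with lysates 1 and 4 the higher in both fractions. The related msp-113 fell by 0.93 (SE 0.20), the phosphatase gene gsp-3 was at 0.35 and not called, and msp genes are near-identical copies whose shared reads make each value uncertain. Of 11 embryo genes 2 were tested, nob-1 (0.06) and sdz-28 (-0.81), with 0 called, and 0 of 3 coelomocyte genes passed the filter.

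The median of the somatic gonad list was 0.75, and -0.68 on library size alone. The list had 4 of 8 genes higher and 0 lower, beside 27.8% and 23.5% of all genes. Its filamin gene fln-1, which is used in the contractile sheath and spermatheca, was at 1743, 2246, 1214 and 1416 CPM in TRAP and at 241, 211, 197 and 229 CPM in total RNA (2.88, SE 0.15). The sheath marker lim-7 was at 0.598, 1.2, 4.04 and 1.1 CPM in TRAP and at 1.43, 1.61, 2.52 and 1.71 CPM in total RNA (-0.38, SE 0.48, not called).

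The 12 largest falls by the same rule were smaller than the 12 largest rises. The nuclear export receptor gene xpo-1 was at 12.22, 13, 8.86 and 7.87 CPM in TRAP and at 53, 65.4, 57.7 and 52.7 CPM in total RNA (-2.47, SE 0.17, adjusted p = 1.2e-07). The glutamine- and asparagine-rich gene pqn-20 was at 17.4, 16.9, 6.64 and 7.23 CPM in TRAP and 51.5, 66.6, 68 and 54.4 CPM in total RNA (-2.43, SE 0.27). The Frizzled receptor gene mom-5 fell by 1.88 (SE 0.16), the ubiquitin ligase gene ari-1.4 by 1.66 and the caspase gene ced-3 by 1.54, at 32.9, 37, 16.8 and 25.2 CPM in TRAP and 77.7, 85.3, 77.4 and 73.9 CPM in total RNA. No library of these 5 genes crossed from TRAP into the range of total RNA.

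The other 7 of the 12 largest falls were tcer-1, a transcription elongation factor homologue, col-159, maph-1.3, parg-1, set-26, epic-2 and pqn-87, from -1.54 to -1.33. The cuticle collagen gene col-159 was at 128, 72.8, 155 and 126 CPM in TRAP and at 453, 290, 187 and 474 CPM in total RNA, with a log2 ratio of -1.82, -1.99, -0.27 and -1.92 in lysates 1 to 4, so that lysate 3 stood apart. The poly(ADP-ribose) glycohydrolase gene parg-1 was at 36.3, 25.3, 12.4 and 23.1 CPM in TRAP and 56.1, 69.4, 63.3 and 55.1 CPM in total RNA (-1.41, SE 0.23).

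Ribosomal RNA genes were also counted, although the libraries were made from polyadenylated RNA. The gene rrn-3.1 was at 61381, 41431, 76599 and 93875 CPM in TRAP and at 4513, 2383, 3441 and 3470 CPM in total RNA (log2 fold change 4.28, SE 0.20). Of the 6 rRNA genes tested 4 were called higher and 0 lower, beside 27.8% and 23.5% of all genes. Both entries named rrn-1.1, repeat copies of 1 RNA, had log2 ratios near 4 or above in lysates 1, 2 and 4 and 1.13 and 0.75 in lysate 3.

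Of 7 genes listed as rRNA methyltransferases, E02H1.1 among them, 0 were higher and 2 lower, beside 27.8% and 23.5% of all genes (median -0.30). Only 1 of them was lower without lysate 2, 3 or 4. They ran from -0.83 for mett-10 (SE 0.22) to 0.22, and the nucleolar methyltransferase gene fib-1 was at 0.08 (SE 0.11, not called). Of 12 insulin and TOR pathway genes tested 0 were higher and 8 lower, against 23.5% of all genes, with a median of -0.53 beside -0.06 for all genes. The S6 kinase gene rsks-1 was at 6.35, 11.6, 7.80 and 4.56 CPM in TRAP and at 30.6, 32.1, 28.8 and 30.4 CPM in total RNA (-2.08, SE 0.23), with no overlap. The kinase gene akt-2 was at 0.41 (SE 0.28, adjusted p = 0.241), passing the threshold without lysate 3 (0.62, adjusted p = 0.0382). Of 7 genes of dafachronic acid synthesis and response 4 were tested. The nuclear receptor gene daf-12 was at 0.90 (SE 0.22, adjusted p = 0.00553), a call lost without lysate 4 (adjusted p = 0.0513) and of the other sign on library size alone, the reductase gene emb-8 fell by 0.41 (SE 0.11), a call lost without lysate 2 (adjusted p = 0.059), and the oxygenase gene daf-36 was at -0.56 (SE 0.35, not called).

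Lysate 3 on its own showed the same muscle genes high, with more scatter elsewhere. Its list medians were 3.29 for the thick filament, 4.78 for the thin filament, 3.80 for the attachments and 3.30 for excitation, all within the range of the other lysates. The lists where it was highest of the 4 lysates included sperm (0.28, others -0.71 to -0.21), somatic gonad (1.44, others 0.44 to 1.05) and hypodermis (0.04, others -0.60 to -0.53), and those where it was lowest included glycolysis (1.92, others 2.25 to 2.88). Over 9657 genes, which are not independent replicates, its log2 ratios had a Pearson's r of 0.81 to 0.82 with those of the other lysates, which had 0.92 to 0.93 among each other. Its ratio lay outside the range of the other 3 by over 1 for 1002 genes, against 141 to 218 genes for lysates 1, 2 and 4. Of the called genes 110 had the opposite sign in lysate 3, against 8 to 14 in the others, and 20 of those called at 2-fold or more. The median SD of the log2 ratio over lysates was 0.34 with it and 0.25 without it.

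Among 3576 genes of 50 CPM or more in either fraction, 25 had a log2 ratio in lysate 3 over 1 above the mean of the others, and 87 over 1 below. The topoisomerase gene top-1, chosen after its values were seen, had log2 ratios of -0.34, -0.61, 1.05 and -0.97 in lysates 1 to 4, and the muscle channel gene unc-105 had 3.34, 4.25, 5.49 and 4.01. At the other end ttx-7 had -0.34, -0.44, -2.06 and -0.16. Without lysate 3 the thick filament, thin filament and attachment lists were called in full (13, 19 and 16 genes), the germline list had 24 of 26 lower genes and the intestine list 11 of 17.

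Whether the ratio of TRAP to total RNA differed between dimt-1 RNAi and control RNAi was tested in 1 model of all 16 libraries with the 8 lysates as blocks. Of 8324 genes 0 were called (0% of those tested), 699 had an unadjusted p under 0.05 (8.40%), and the smallest adjusted p was 0.205. DESeq2 called 35 genes and limma with quality weights 32. Leaving out lysate 2 of dimt-1 RNAi gave 22 calls and leaving out lysate 3 gave 7, all of them lower on dimt-1 RNAi. The smallest p values belonged to F18C12.3, pck-2 and imb-1. The mean log2 ratio of F18C12.3 was 1.59 on dimt-1 RNAi and 2.64 ± 0.33 (SD, n = 4) on control RNAi, a difference of -1.04 (SE 0.19, edgeR adjusted p = 0.205). The carboxykinase gene pck-2 was at 0.60 and 1.31, and the importin gene imb-1 at -0.32 and -1.18.

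In 3 of the muscle lists most differences were below 0, and 0 genes were called. The difference between treatments was below 0 for 13 of 13 thick filament genes (median -0.40), 18 of 19 thin filament genes (median -0.27) and 16 of 16 attachment genes (median -0.23), beside 3854 of 8324 genes overall (median 0.03). An unadjusted p under 0.05 was found for 7, 6 and 4 of these genes, all below 0. On library size alone 11 of 13, 16 of 19 and 12 of 16 were below 0. The unadjusted p was then under 0.05 for 3, 6 and 0 of them. The genes of a list were measured in the same lysates and are not independent replicates. Across the alternatives the medians were -0.58 to -0.24 for the thick filament, -0.41 to -0.15 for the thin filament and -0.39 to -0.11 for the attachments, and without lysate 3 they were -0.40, -0.27 and -0.27. For pat-10 the mean log2 ratio was 6.08 on dimt-1 RNAi and 6.64 ± 0.09 (SD, n = 4) on control RNAi (difference -0.55, edgeR adjusted p = 0.381). Some alternatives did call genes of these lists, all lower on dimt-1 RNAi. Limma with quality weights called 3 thick and 4 thin filament genes, DESeq2 called 3 thin filament genes, and leaving out lysate 2 of dimt-1 RNAi gave 2 thick and 5 thin filament genes. Only 4 settings called any of the genes tested for this difference, these 3 and the fit without lysate 3 of dimt-1 RNAi. Every other setting, the main fit included, called 0. Among those 4, picked because they gave calls, act-1, pat-10 and tni-3 were each called in 3, all but the fit without lysate 3.

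The other muscle lists lay closer to 0. The median difference was -0.17 for excitation (12 of 19 below 0), which was 0.01 without lysate 4 of dimt-1 RNAi. For the basement membrane it was -0.12 (8 of 11), and 0.005 on library size alone. It was -0.10 for the dystrophin complex (7 of 10) and 0.03 there on library size alone, and both muscle transcription factors tested were above 0. Lists of other tissues and functions also had medians below 0, at -0.32 for neurons (9 of 11 genes below 0), -0.23 for the somatic gonad (6 of 6), -0.19 for hypodermis and cuticle (5 of 7) and -0.16 for mitochondrial ribosomal proteins (47 of 63). Under both looser filters on low counts the sign changed for neurons (0.40 and 0.41) and for hypodermis and cuticle (0.45 and 0.64), with more genes tested. The germline list had a median difference of 0.18, and the cytosolic ribosomal protein list one of -0.01.

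**Figure D5:**
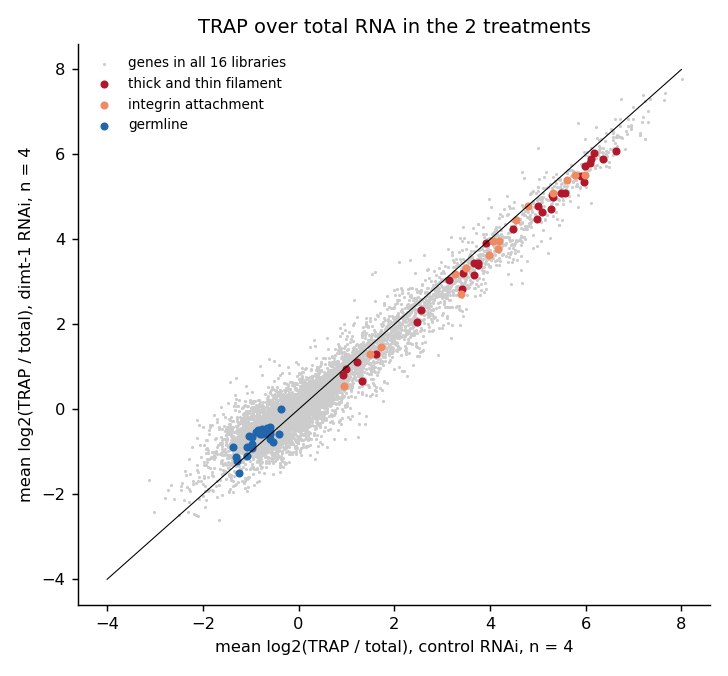
Mean log2 ratio of TRAP to total RNA over 4 lysates on dimt-1 RNAi (vertical axis) against control RNAi (horizontal axis), 1 point per gene for 8324 genes, with the line of equal ratios. All 13 thick filament and 18 of the 19 thin filament genes lie below the line in the fitted difference, and 0 genes passed the test. On library size alone the fitted difference is below 0 for 11 and 16 of them.

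Lysate 3 itself entered that test under its label. Without it, the 7 genes called were col-159, iffb-1, top-1, col-160, col-140, rpl-25.1 and F18C12.3, named after their values were seen. The difference was -1.41 (SE 0.19, edgeR adjusted p = 0.0063) for col-159 and -1 with lysate 3 included (adjusted p = 0.455). For the ribosomal protein gene rpl-25.1 it was -0.90 (SE 0.15, adjusted p = 0.033) and -0.69 with lysate 3 (adjusted p = 0.381).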

How the data were processed

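The authors deposited raw counts per gene for the muscle experiment, 16 of the 32 libraries of the series. The submitters' processing notes name STAR 2.7.2b, and the build, the annotation and the treatment of strand for these libraries are not given in the sources used here. Between 83.3 and 90.0% of the counts from 1 to 20 were even, which happens if read pairs enter as 2 counts, and totals can then exceed fragments. Columns were assigned by library name, with 0 unused, and symbols matched 43395 identifiers. Annotation was from Ensembl release 115 and sequence from RefSeq, both WBcel235.

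Genes with 10 or more counts in all 8 libraries were tested with edgeR 4.0.16 in R 4.3.3 (TMM, glmQLFit, glmQLFTest) with the replicate number as a block, and Benjamini-Hochberg adjusted p under 0.05 was called. Deviations of TRAP and total RNA libraries of the same number had r = 0.37, 0.15, 0.32 and 0.24 for numbers 1 to 4. Unmatched numbers had r from -0.42 to 0.18, a range that holds the value of number 2. The numbers were taken to pair the libraries. The titles call the replicates biological. SE is the log2 fold change over the root of F. Differences between treatments were tested as an interaction. Simulated counts with 200 changed genes served to test the scripts.

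Named genes were E02H1.1, 12 rises and 12 falls, the largest among genes called with 4 lysates of 1 sign and a gene-class symbol, each list's highest and lowest log2 fold change and highest TRAP level, up to 4 more by TRAP level in muscle lists, and the 3 smallest interaction p. Others are said to be chosen after their values were seen. A further gene is not reported here. Members, lists and tests were chosen with earlier results of these data known. Alternatives were DESeq2 1.42.0 and its size factors, library size alone, other filters, limma 3.58.1 with quality weights, no block, leave-outs and counts divided by 2. Count intervals were not used, and the spread over lysates sets the precision.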

Additional observations from a re-analysis of the deposited data

Results flagged for a closer look

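A lysate was singled out where it lay far from the other 3 relative to their whole range, and by chance this happens in about 1 in 20 such groups. Of 185 groups looked at, 10 were singled out. The TRAP library of lysate 3 had 36218 genes at 0 counts (others 30820 to 31518) and 204 genes with 1 to 20 counts (others 3248 to 3674). Among lists, the hypodermis and cuticle median was 0.04 in lysate 3 (others -0.60 to -0.53).

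Among 138 genes, 7 had such a lysate. In lysate 3 the log2 ratio of TRAP to total RNA was -0.27 for col-159 (others -1.99 to -1.82), -0.99 for itr-1 (others -0.43 to -0.34) and 2.53 for hlh-1 (others 4.50 to 4.84). In lysate 1 it was -1.16 for set-26 (others -1.46 to -1.42) and -0.78 for nhr-23 (others -1.52 to -1.43). In lysate 2 it was 6.47 for unc-27 (others 5.84 to 5.94) and 6.51 for far-2 (others 6.11 to 6.14).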

How the results depend on the processing

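The count of called genes was 4955, and 3679 to 5825 with 1 lysate left out. Those called at 2-fold or more were 2308, and 2179 to 2721 with 1 lysate left out. The fit with no replicate block called 4617 genes, of which 4498 were also called with the block, 0 of them in the opposite direction; it lost the calls of itr-1, snf-6, myo-1, col-19, msp-113, aldo-2, ucr-2.3 and mrpl-46 among the genes named. On library size alone 8563 genes were called, 7529 of them at 2-fold or more, with 4222 shared calls, 759 in the opposite direction. With that scaling the log2 fold change turned to -1.21 for E02H1.1, -0.76 for unc-22, -0.60 for cap-2, -0.87 for unc-52, -0.066 for dys-1, -1.11 for ceh-51, -0.91 for sbt-1, -1.4 for syp-1, -1.08 for gsp-3, -1.43 for msp-59, -1.37 for nob-1, -1.38 for gpd-1, -0.23 for mrpl-44, -0.43 for rpn-6.1, -0.88 for pas-3, -1.35 for fib-1, -1.02 for akt-2 and -0.53 for daf-12. Both looser filters on low counts ended the calls of snf-6, lam-3, ges-1, col-19, aldo-2, ucr-2.3 and mrpl-46. Under the other alternatives no named gene changed direction with a call on either side. The difference between treatments had 0 calls, 35 with DESeq2, 32 with limma and quality weights, 0 to 22 with a dimt-1 RNAi lysate left out, and 0 under each other alternative, control lysates left out included. Among genes at low levels, snf-6, ges-1 and the embryo genes carried SE of 0.37 to 0.50. The SE of hsp-12.1, low in total RNA but not in TRAP, was 0.19. The filter on TRAP lysate 3 limits which low genes could be tested at all.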

Other observations

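The 141 genes that passed the filter in TRAP and not in total RNA enter no comparison above. The gene with most TRAP counts among them, T20D4.10, had 2202, 1768, 722 and 2386 counts in the TRAP libraries of lysates 1 to 4 and 32, 82, 0 and 56 counts in total RNA. The gene best-26, of the bestrophin chloride channel family, had 694, 1016, 1290 and 1072 counts in TRAP and 50, 62, 4 and 76 counts in total RNA. In both genes the total RNA library of lysate 3 was the lowest. At the other end, 301 genes with 10 or more counts in all 4 total RNA libraries were under 10 in all 4 TRAP libraries, 50 of them at 0.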
